A study of Homo sapiens with 8 samples.

Results

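Untreated wild-type (WT) cells of MDA-MB-231, a line from a triple-negative breast tumour, were divided by the level of CD14 transcript in each cell. A cell was called positive when CD14 reached 50 CPM (counts scaled to a library total of 1e6) of that cell's own counts, and negative below. Of the 96 untreated WT cells with at least 1000 detected genes and 5000 counts, out of 363 such cells in the whole series, 46 were positive and 50 negative. The members were chosen by the measured CD14 level, so CD14 itself is given as a description, with no test. The series held 8 libraries of singly picked cells in 4 groups of 2: untreated WT, WT given 5 Gy of ionizing radiation and cultured for a further 4 h, untreated cells with knockdown of the kinase ATM, and knockdown cells given the same dose and time. All groups were the same cell line in the same medium with serum, and the labels do not say how ATM was knocked down, whether the knockdown is 1 clone, or whether a group is made of separate cultures. The p-values below reflect only how far these libraries differ, which may be technical.

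CD14 is a surface protein anchored by a lipid tail that hands bacterial lipopolysaccharide to the receptor complex of TLR4 and LY96 (MD-2), and a shed form circulates in serum. It is best known as a marker of monocytes and macrophages, and some epithelial and tumour cells also carry its transcript. TNFSF10 encodes TRAIL, a death-receptor ligand of the tumour necrosis factor family, COL1A2 encodes a chain of type I collagen, and ANGPT1 encodes angiopoietin 1, a ligand of the endothelial receptor TEK. These genes had been named together with CD14 from earlier results on the same cells, so their values in untreated WT cells are descriptions.

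The promoters of CD14, of TNFSF10 and of CDC20 are shown because these genes stand for the rule, for the gene that ranked closest to CD14 and for the mitotic genes that were lower in positive cells. Each is the 250 bases before the RefSeq start (GRCh38.p14), 5′ to 3′ on the gene's strand, at chr5:140633176-140633425 (minus strand), chr3:172523431-172523680 (minus strand) and chr1:43358731-43358980 (plus strand) in that order. Capitals mark matches, on either strand, to the TATA box TATAAA, the AP-1 site TGANTCA or the cell cycle homology region TTTGAA, which do not overlap here.
CD14: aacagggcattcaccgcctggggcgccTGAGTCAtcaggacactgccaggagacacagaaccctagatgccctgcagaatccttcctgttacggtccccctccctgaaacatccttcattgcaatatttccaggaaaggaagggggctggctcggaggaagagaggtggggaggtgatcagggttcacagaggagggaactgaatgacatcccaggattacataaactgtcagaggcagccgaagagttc
TNFSF10: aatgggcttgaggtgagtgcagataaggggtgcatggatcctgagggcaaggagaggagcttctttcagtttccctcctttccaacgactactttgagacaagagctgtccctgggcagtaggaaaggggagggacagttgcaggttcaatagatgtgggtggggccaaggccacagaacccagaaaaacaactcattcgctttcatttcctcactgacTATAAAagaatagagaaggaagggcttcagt
CDC20: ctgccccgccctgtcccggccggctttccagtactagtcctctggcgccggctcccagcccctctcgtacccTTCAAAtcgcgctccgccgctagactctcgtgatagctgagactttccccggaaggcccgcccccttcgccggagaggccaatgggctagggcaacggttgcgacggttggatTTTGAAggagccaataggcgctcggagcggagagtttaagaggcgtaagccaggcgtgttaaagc
The CD14 window held 1 AP-1 match, beginning 223 bases before the start, and none of the other motifs. The TNFSF10 window held 1 TATA box match, 31 bases before the start, and the CDC20 window held matches to TTTGAA 178 and 65 bases before it. Among 35116 RefSeq promoter windows of this length, 10.7% held TATAAA, 6.57% TGANTCA and 13.3% TTTGAA. A match describes the letters only.

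CD14 transcript ran without a gap from 0 to 925 CPM in untreated WT cells. In replicate 1 the 25 positive cells of 48 had a median of 159 CPM and a highest value of 925 CPM, and the 23 negative cells had a median of 4.16 CPM. In replicate 2 the 21 positive cells of 48 had a median of 222 CPM and a highest value of 684 CPM, and the 27 negative cells had a median of 4.86 CPM. The positive class was 52.1% of cells in replicate 1 (exact 95% binomial interval 37.2 to 66.7%) and 43.8% in replicate 2 (29.5 to 58.8%); the intervals cover the sampling of cells only. The 2 libraries overlapped in both class share and CD14 range.

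The classes are ranges of a continuous level rather than cell types. The highest negative cell and the lowest positive cell stood at 33.3 and 50.2 CPM in replicate 1, and at 40.6 and 52.9 CPM in replicate 2. Between 25 and 50 CPM lay 6 cells, and between 50 and 100 CPM 14 cells. Of the 50 negative cells, 13 had no CD14 count and 37 had some. Positive cells held a median of 44.5 CD14 counts, and 4 of them held fewer than 10. In the libraries that the division did not use, positive cells were 22.9% of both irradiated WT libraries, 12.2% and 6.82% of the untreated knockdown libraries and 6.98% of both irradiated knockdown libraries.

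**Figure D1:**
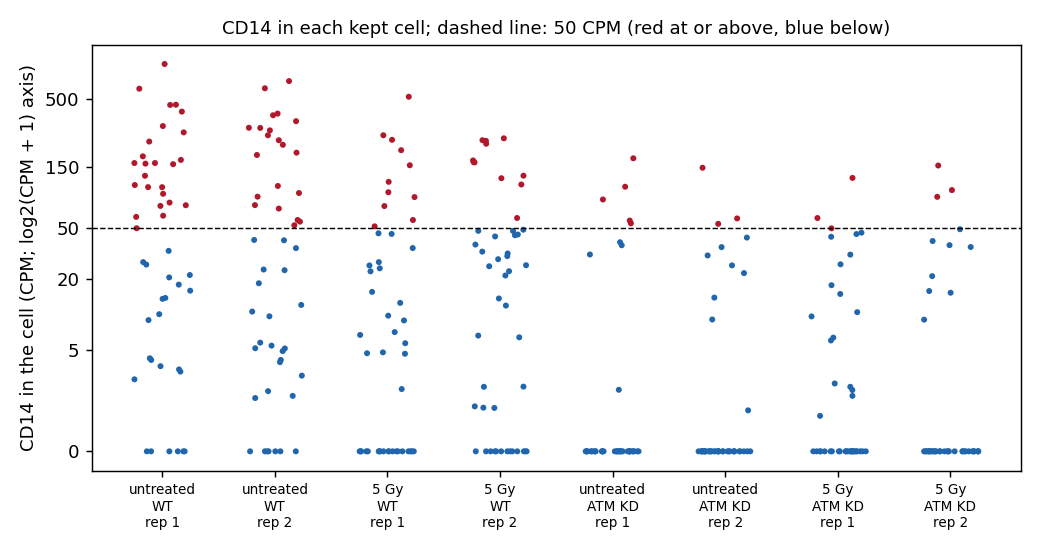
CD14 level of each kept cell (y axis, CPM of the cell on a log2(CPM + 1) scale) in the 8 libraries (x axis), red at or above the dashed line of 50 CPM and blue below. No gap separates the classes, and red points are most frequent in the 2 untreated WT libraries, 52.1% and 43.8% of cells.

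The labelled cell type was checked against markers. Summed over the 14 epithelial markers in the files, positive and negative cells held 3740 and 4210 CPM in replicate 1 and 4340 and 4040 CPM in replicate 2. Of 19 monocyte and macrophage markers 7 were in the files, and they summed to 5.04 CPM in positive and 2.63 CPM in negative cells of replicate 1, and to 27.4 and 0.98 CPM in replicate 2. PTPRC, the leukocyte surface phosphatase CD45, was at 0 CPM in the positive cells of both libraries, and LYZ, lysozyme, at 0.0855 and 0 CPM. CSF1R, the macrophage colony-stimulating factor receptor, supplied most of the list, at 4.62 against 0.0796 CPM in replicate 1 and 20.7 against 0.817 CPM in replicate 2, with a single cell giving 75.9% and 52.5% of the positive sums. Fibroblast markers, among them COL1A2, summed to 142 against 89.8 CPM in replicate 1 and to 178 against 50 CPM in replicate 2. COL1A2 gave 79.1 and 140 CPM of the positive sums. COL1A1 was lower, at 3.42 against 15.5 CPM and 0.259 against 6.04 CPM. Of the 6 fibroblast markers tested, 3 were higher and 3 lower. PDGFRA and POSTN were at 0 in both libraries. The 4 lymphocyte markers in the files summed to 14.5 against 3.98 CPM and 17.3 against 12.2 CPM, of which IL7R, the interleukin 7 receptor, gave 14.5 and 17.2 CPM in positive cells, with a single-cell median of 0 in both classes. The 9 endothelial and mural markers in the files were lower in sum, at 16.6 against 49.6 CPM and 22.8 against 49.8 CPM. Positive cells thus carried CD14 beside epithelial transcripts, and PTPRC and LYZ were at or near 0. Summed monocyte, lymphocyte and fibroblast lists were higher in positive cells of both libraries, and the endothelial and mural list was lower. The part of these transcripts in the differences below was not tested.

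Depth and cell cycle were compared between the classes within each of the 5 libraries that held at least 5 cells of each class: both untreated WT, both irradiated WT and replicate 1 of the untreated knockdown. The positive cells of untreated WT had median totals of 323854 and 289374 counts, against 341815 and 428510 for the negative cells. Over the 5 libraries the log2 ratio of medians averaged -0.31, with an exact two-sided sign-flip permutation p of 0.562. The share of cells called G2/M, from cells thinned to 69000 counts each, was 40.9% of positive against 66.7% of negative cells in untreated replicate 1. In replicate 2 it was 4 of 20 positive cells against 14 of 26 negative cells (53.8%). In irradiated WT it was 3 of 10 positive cells against 58.6% of negative cells in replicate 1 and 18.2% against 34.3% in replicate 2, and in the knockdown library 0 of 4 positive cells against 41.4%. Positive cells were less often in G2/M in 5 of 5 libraries, by a mean of 29.1 percentage points (-29.1), with an exact permutation p of 0.0625, the smallest that 5 libraries allow, and 0.125 after Benjamini-Hochberg adjustment over 4 such measures. Conversely, 72.2% of G1 cells but 36.0% of S or G2/M cells were positive in replicate 1, and 54.2% and 31.8% in replicate 2. The S share differed by -3.25 points on average (exact permutation p 0.562), with both directions among libraries. The mitochondrial share of counts was higher in positive cells in 5 of 5 libraries, by 1.14 points on average (exact permutation p 0.0625, adjusted 0.125), and it was 10.5% against 9.85% and 11.4% against 9.09% in untreated WT. The part of phase or mitochondrial share in the gene differences that follow was not tested beyond the within-phase values given with them.

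**Figure D2:**
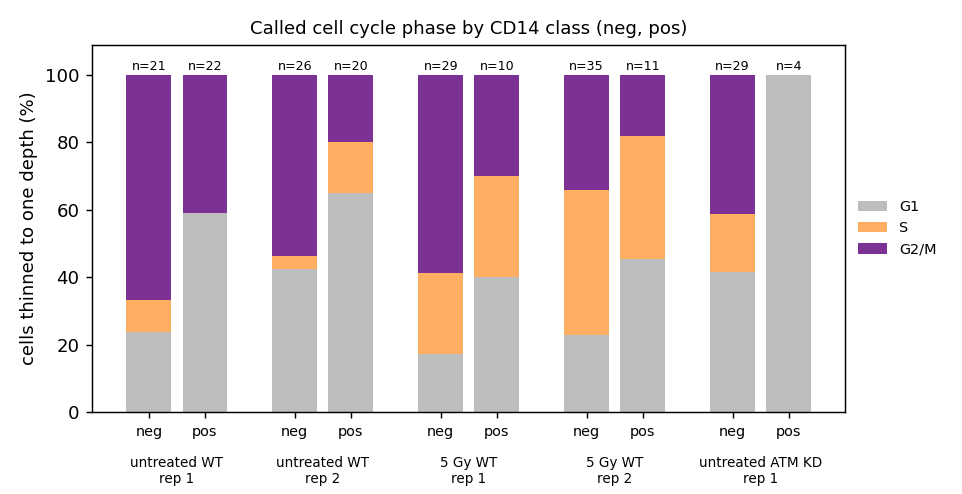
Share of cells (y axis, percent of cells thinned to one depth) called G1, S and G2/M in negative and positive cells of each of 5 libraries (x axis), with the number of cells above each bar. The G2/M part is smaller in the positive class of all 5 libraries, for example 40.9% against 66.7% in untreated WT replicate 1.

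Other transcripts were compared between the classes by summing counts per library and class and fitting edgeR's quasi-likelihood test with the library as a block, with adjusted p-values over 10756 genes. In untreated WT cells 56 genes passed an adjusted p of 0.05, which is 0.521% of those tested. Of these, 18 (0.167%) were higher and 38 (0.353%) lower in positive cells, and 907 genes had an unadjusted p below 0.05. The 18 include TNFSF10, whose values here are descriptions. The median log2 difference of all genes was -0.02. Sums weight cells by depth. The number of calls changed with the cells used and with their weighting, and the cause was not tested. Without the cells that exceeded 2 times the median total of their library, 3 genes passed, with depth-matched cells 6, and among cells called G1 alone 0 by edgeR, where 363 had an unadjusted p below 0.05. When each cell was thinned to the same depth 107 genes passed, 49 of them among the 56, and when limma was run on the mean CPM per cell 107 passed, 47 of them among the 56. The sign of all 56 differences was kept in each of these settings but the G1 cells, where 44 of the 53 tested kept it. The G1 fit held 3 libraries and 1 residual degree of freedom, against 5 and 2 in the main fit, so its calls are not comparable. Leaving out untreated WT replicate 2 gave 31 calls, 17 of them among the 56, and leaving out irradiated WT replicate 2 gave 33, 28 of them among the 56.

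Among the 18 genes higher in positive cells, CYP1B1, a cytochrome P450 of oestrogen and xenobiotic metabolism (ENSG00000138061.11, chromosome 2, 38066973 to 38109902), was at 922 CPM in positive and 285 CPM in negative cells of replicate 1, and at 1110 and 330 CPM in replicate 2. The log2 difference was 1.78 (SE 0.173, edgeR adjusted p 0.000298). In single cells the medians were 842 against 217 CPM and 453 against 120 CPM, so the difference was present in both libraries although the ranges of single cells overlapped. CYP1B1 sums were above those of negative cells in all 24 alternatives, by log2 differences of 1.08 to 1.88, and the call was lost in 3 of them: among G1 cells, among S and G2/M cells, and against negative cells with no CD14 count.

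TNFSF10 (ENSG00000121858.10, chromosome 3, 172505508 to 172523507) was at 1320 against 523 CPM in replicate 1 and at 793 against 265 CPM in replicate 2, a log2 difference of 1.52 (SE 0.173). The medians of single cells were 899 against 205 CPM and 493 against 173 CPM. Ranked by the mean Spearman correlation with CD14 across thinned cells of both untreated libraries (43 and 46 cells), TNFSF10 stood 1st of 7321 genes at 0.56, with 0.65 and 0.46 in the single libraries. In the irradiated WT libraries the correlations were 0.40 and 0.32. The relation was not graded throughout. Cells with no CD14 count had TNFSF10 medians of 392 CPM in replicate 1 (6 cells) and 580 CPM in replicate 2 (7 cells), above the 156 and 151 CPM of cells with a CD14 level above 0 and below 50 CPM. From 50 to 150 CPM of CD14 the medians were 490 and 258 CPM, and at 150 CPM or more they were 1420 and 798 CPM. Against negative cells with no CD14 count the TNFSF10 difference was 0.37.

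COL1A2 (ENSG00000164692.17, chromosome 7, 94394561 to 94431232) was at 79.1 against 41.7 CPM and 140 against 19.4 CPM, a log2 difference of 1.94 (SE 0.622). Its single-cell medians were 40.7 against 9.60 CPM and 17.7 against 8.41 CPM, and a single cell gave 52.2% of the positive sum in replicate 2. ANGPT1 (ENSG00000154188.9) was at 55.3 against 23.5 CPM and 26.7 against 4.65 CPM, a log2 difference of 1.92 (SE 0.606), with 1 cell giving 42.3% and 45.6% of the positive sums. By correlation with CD14 they ranked 199th (COL1A2, 0.26) and 260th (ANGPT1, 0.24). Neither is among the 56 genes. In irradiated WT COL1A2 was at 24.1 against 26.6 CPM and 5.26 against 39.7 CPM, below the negative cells in both libraries, and ANGPT1 had no common direction, at 23.7 against 33.6 CPM and 44.5 against 33.1 CPM.

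TMSB4X, an actin-sequestering peptide and the gene ranked next to TNFSF10 by correlation (0.50), was at 21500 against 13900 CPM and 20600 against 11500 CPM (log2 difference 0.80, edgeR adjusted p 0.00321). The lowest positive cell of TMSB4X stood at 12500 CPM in replicate 1 and 6080 CPM in replicate 2, against negative medians of 12600 and 11100 CPM, so the classes overlapped in both libraries. PQLC3 had the largest difference among the higher genes, 4.66 (adjusted p 0.00104), from 48.7 against 2.07 CPM and 77.8 against 3.10 CPM. It was detected in 77.3% of positive and 19.0% of negative thinned cells of replicate 1, and in 10 of 20 and 7 of 26 of replicate 2. Other genes that ranked close to CD14 were CTAGE5 (0.49), C15orf48 (0.48), FTL, the ferritin light chain (0.46), ZBED6CL (0.46) and CYP1B1 (0.45). The lowest correlations were those of HSP90AA1, SLC38A1 and PTTG1, each -0.52.

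Among the other higher genes were RARRES2 (chemerin, 1.11) and RARRES3 (1.04), CEMIP, a hyaluronan-degrading protein (1.62), TGFBI, a matrix protein (1.46), NNMT, nicotinamide N-methyltransferase (1.17), TXNRD1, thioredoxin reductase (0.91), ZBED6CL (1.39) and MT-CO2, a mitochondrially encoded subunit of cytochrome oxidase (0.54). GBP1, an interferon-induced GTPase, was higher by 1.85 and IFNGR1, a chain of the interferon-gamma receptor, by 2.01 on the log2 scale. For GBP1, 1 cell gave 67.3% of the positive sum in replicate 2, and its call was lost in 14 of 24 alternatives. The call was also lost in 13 for TGFBI, 12 for NNMT and TXNRD1, 10 for ZBED6CL and 9 for CEMIP, RARRES3 and MT-CO2. For RARRES2 and IFNGR1 it was lost in 8.

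**Figure D3:**
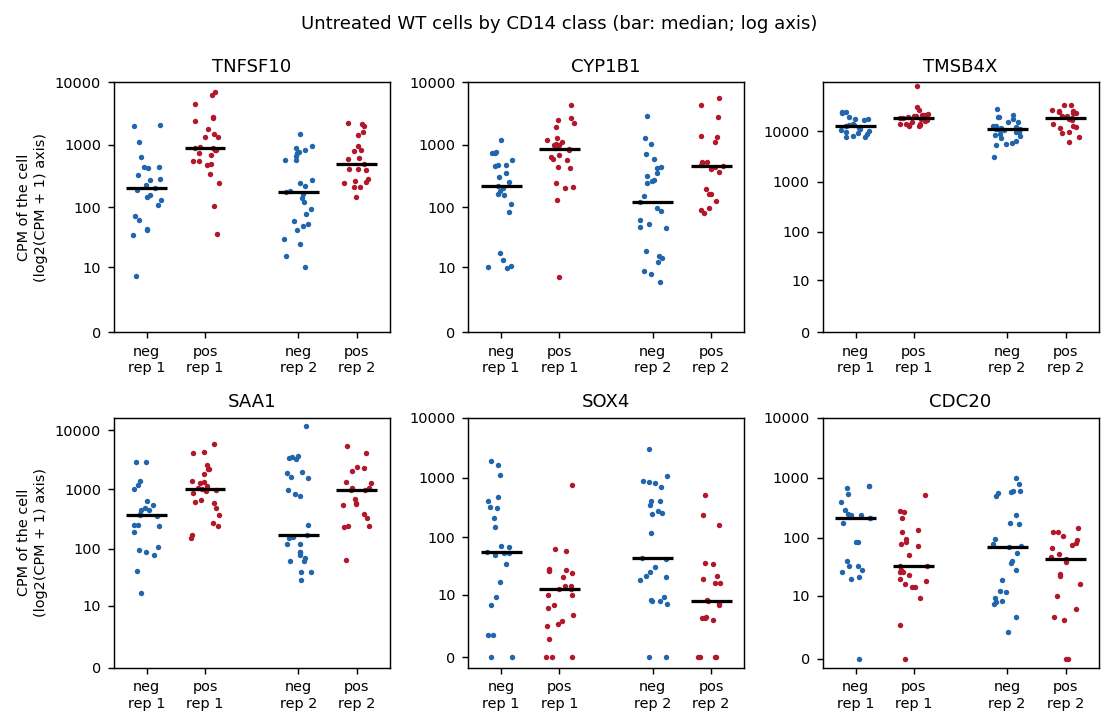
Level of 6 genes in each untreated WT cell (y axis, CPM of the cell on a log2(CPM + 1) scale) for negative (blue) and positive (red) cells of each library (x axis), with black bars at the medians. TNFSF10 medians rise from 205 to 899 CPM and from 173 to 493 CPM, SOX4 medians fall from 56.3 to 12.6 CPM and from 45.0 to 7.83 CPM, and the cells of both classes overlap for every gene.

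Acute-phase and antigen-presentation transcripts were mostly on the higher side. The list of complement and acute-phase genes had 12 tested of 18, of which 10 were higher and 2 lower, with a median of 0.89 against -0.02 for all genes; SAA1 and SAA2, the serum amyloid A proteins, passed the test. SAA1 was at 1860 against 574 CPM and 1590 against 919 CPM (log2 difference 1.31, edgeR adjusted p 0.00688), and SAA2 at 260 against 63.9 CPM and 295 against 159 CPM (1.52, adjusted p 0.0305). The genes are close copies whose reads may be split between them. In replicate 2 a negative cell held the highest SAA1 level, 11700 CPM. The 7 cells there with no CD14 count had an SAA1 median of 3260 CPM, against 120 CPM for the other negative cells. From 50 to 150 CPM of CD14 the median was 558 CPM, and at 150 CPM or more 1050 CPM. In replicate 1 these medians were 498 (6 cells), 353, 1270 and 973 CPM. The SAA1 call was lost in 11 of 24 alternatives, among them the thinned sums, and the lowest log2 difference was 0.03. Of 19 MHC class I and II genes 9 were tested and 8 were higher, with a median of 0.98. CD74, the invariant chain of class II, passed (0.98, edgeR adjusted p 0.0356), at 871 against 357 CPM and 594 against 404 CPM. The CD74 call was lost in 10 of 24 alternatives. B2M, the light chain of class I, was at 1410 against 834 CPM and 1080 against 784 CPM and did not pass (0.67, adjusted p 0.104). Of 21 lysosomal genes tested 18 were higher and 0 passed by edgeR (6 at an unadjusted p below 0.05, 0 passed by DESeq2 and 1 by limma), with a median of 0.37; CTSD, cathepsin D, was at 2530 against 2060 CPM and 3370 against 2220 CPM. Of 26 matrix genes tested 20 were higher and TGFBI alone passed, with a median of 0.35; THBS1, thrombospondin 1, had a difference of 0.70 (adjusted p 0.0784) and FN1, fibronectin, of 1.08 (adjusted p 0.118).

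In the pathway in which CD14 acts no gene passed. Of 28 genes of TLR4 and CD14 signalling 24 were tested, 10 higher and 14 lower, with a median of -0.09 and 0 passing by edgeR (1 at an unadjusted p below 0.05), DESeq2 or limma. TLR4 itself was at 12.9 against 18.9 CPM and 25.1 against 29.2 CPM, and LY96 at 12.1 against 12.4 CPM and 2.20 against 11.6 CPM. MYD88, the adaptor below TLR4, was at 24.2 against 38.8 CPM and 23.5 against 39.0 CPM. Their log2 differences were -0.32 (TLR4), -1.12 (LY96) and -0.64 (MYD88), and the smallest of their adjusted p-values was 0.811. NF-kB targets had 21 tested, 11 higher and 10 lower, with a median of 0.05 and 0 passing by edgeR (4 at an unadjusted p below 0.05), 2 by DESeq2 and 0 by limma. CXCL8, the chemokine interleukin 8, was at 173 against 16.9 CPM and 36.5 against 21.6 CPM (2.13, adjusted p 0.064), with 1 cell holding 75.6% of the positive sum of replicate 1. SOD2, a mitochondrial superoxide dismutase, was at 390 against 104 CPM and 158 against 108 CPM (1.29, adjusted p 0.0624), and IL6 at 65.2 against 37.5 CPM and 54.5 against 47.4 CPM. Of 14 tested genes of TRAIL and its receptors 7 were higher and 7 lower. Of these only TNFSF10 was among the 56 genes, which were 0.521% of all genes tested. As TNFSF10 was named from earlier results on these cells, its place there is a description. TNFRSF11B, the decoy receptor osteoprotegerin, was at 60.1 against 16.5 CPM and 74.1 against 26.2 CPM (1.74, adjusted p 0.282), and the death receptor TNFRSF10B at 34.5 against 42.9 CPM and 22.4 against 43.2 CPM (-0.57, adjusted p 0.787).

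Genes of mitosis were lower in positive cells. All 36 genes of the G2/M list were tested and all 36 were lower, 12 of them past the threshold, with a median of -1.13 against -0.02 for all genes. The number past the threshold fell to 1 without untreated WT replicate 2, to 5 and 4 without irradiated WT replicates 1 and 2, to 1 at a CD14 threshold of 20 CPM, and to 0 with depth-matched cells, without cells above 2 times the median total or without the library block, while 35 or 36 of 36 genes stayed lower in each of these. CDC20, the activator of the anaphase-promoting complex whose promoter is printed above, was at 137 against 328 CPM and 52.5 against 206 CPM (-1.55, SE 0.252, edgeR adjusted p 0.00971). CENPE, a kinetochore motor, was at 139 against 421 CPM and 16.6 against 141 CPM (-2.25, adjusted p 0.00503). The kinase PLK1 (-2.52), the survivin gene BIRC5 (-1.52), the topoisomerase TOP2A (-0.86) and the proliferation marker MKI67 (-1.01) also passed. So did the kinesin KIF14 (-2.70), which is not on the G2/M list. The G2/M list is the one from which the G2/M share was called, so both describe the same measurement. Of its genes 31 had a promoter window, and 17 of these held TTTGAA. Of the genes of G1/S and DNA replication 35 were tested, 16 higher and 19 lower, with 0 passing by edgeR (6 at an unadjusted p below 0.05), DESeq2 or limma, and a median of -0.04.

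The mitotic difference was also read within called phases. Phase was called from this same list, so choosing cells by phase limits the level of these genes in both classes. The values within phase therefore cannot show whether the difference depends on phase. Among S and G2/M cells 35 of 36 genes were lower, with a median of -0.69 and 0 passing by edgeR. Among cells called G1, 12 of 32 genes tested were lower and the median was 0.19. CDC20, MKI67 and TOP2A then had differences of 0.12, 0.68 and 0.12, none of them passing. TNFSF10 and CYP1B1 were compared within phase as well. For TNFSF10 the medians of single G1 cells were 1360 against 449 CPM in replicate 1 (13 positive and 5 negative cells) and 493 against 183 CPM in replicate 2 (13 and 11 cells). Among S and G2/M cells they were 554 against 151 CPM (9 and 16 cells) and 397 against 141 CPM (7 and 15 cells). For CYP1B1 the G1 medians were 878 against 562 CPM and 494 against 120 CPM, and the S and G2/M medians 570 against 173 CPM and 446 against 98.2 CPM. Positive cells had the higher TNFSF10 and CYP1B1 median in every phase and library, at numbers of cells with which the edgeR test within phase called neither gene.

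The other lower genes named here are not on the G2/M list. SOX4, a transcription factor of progenitor and tumour cells (ENSG00000124766.6, chromosome 6, 21592768 to 21598619), was at 65.9 against 325 CPM and 40.8 against 555 CPM (-2.96, SE 0.350, edgeR adjusted p 0.000986). Its single-cell medians were 12.6 against 56.3 CPM and 7.83 against 45.0 CPM, so it was lower in the typical cell as well, and within G1 cells they were 9.98 against 70.4 CPM and 7.83 against 247 CPM. The secreted cysteine protease inhibitors CST1 and CST4, close copies of each other, were at 97.6 against 325 CPM and 141 against 951 CPM (CST1, -2.18) and at 62.1 against 269 CPM and 123 against 669 CPM (CST4, -2.22). Their highest negative cells reached 7420 CPM (CST1) and 4370 CPM (CST4), while the medians were 69.1 against 142 CPM and 72.6 against 94.5 CPM in that library, replicate 2. KRT81, a hair keratin, differed by -2.18 and SERPINE2, a serine protease inhibitor, by -2.60. The SERPINE2 call was lost in 12 of 24 alternatives and that of KRT81 in 5. AGR2, a protein disulphide isomerase of secretory epithelia (-2.60), and SPANXB1, a cancer-testis antigen with near-identical copies (-3.65), were high in few cells, and 1 cell gave 51.4% and 47.0% of the negative sums of AGR2. ESAM, an endothelial adhesion molecule (-2.48), and MT2A, a metallothionein (-1.04), were also lower. MEF2C, named here because it had the largest negative difference (-5.51), was at 0.94 against 23.4 CPM and 0.518 against 55.1 CPM, with a median of 0 in both classes of replicate 1.

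Interferon-stimulated genes gave no single direction. Of 34 tested, 14 were higher and 20 lower, with a median of -0.33, and OASL and ISG15 passed as lower. OASL, an interferon-induced antiviral protein, was at 19.7 against 246 CPM and 0.259 against 9.39 CPM (-3.93), but 1 negative cell held 96.6% of the sum in replicate 1 and the single-cell medians were 2.67 against 1.79 CPM. ISG15, a ubiquitin-like modifier, was at 391 against 904 CPM and 229 against 386 CPM (-0.92, edgeR adjusted p 0.0388), with 1 negative cell holding 58.4% of the sum in replicate 1 and medians of 249 against 265 CPM. The direction of the list turned when cells were thinned to one depth (18 of 30 higher, median 0.23) and when cells above 2 times the median total were left out (20 of 34 higher, median 0.29).

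The same cut was then applied to libraries that the division had not used. In irradiated WT (11 positive and 37 negative cells in each library, fewer positive cells than in untreated WT), 0 of the 10756 genes passed by edgeR (0.0%), with 511 at an unadjusted p below 0.05, 14 passing by DESeq2 and 8 by limma. On thinned sums 12 passed. Of the 18 genes higher in untreated positive cells, 14 were higher in irradiated positive cells as well, with a median of 0.32 against -0.04 for all genes, and 18 of 18 on the mean CPM per cell by limma, with a median of 0.53. TNFSF10 was at 698 against 411 CPM and 585 against 367 CPM (0.79, unadjusted p 0.00033, edgeR adjusted p 0.528). CEMIP was at 221 against 100 CPM and 240 against 91.4 CPM (1.34, adjusted p 0.528), and RARRES3 at 327 against 178 CPM and 327 against 172 CPM (0.97, adjusted p 0.528). These differences had the direction of untreated cells in both irradiated libraries and did not pass the test. CYP1B1 was at 808 against 538 CPM and 745 against 765 CPM (0.34), with no common direction.

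Of the 38 genes lower in untreated positive cells, 17 were lower and 21 higher in irradiated WT sums, with a median of 0.05, whereas on the mean CPM per cell 32 were lower, with a median of -0.51. In irradiated WT sums 32 of 36 genes of the G2/M list were higher, with a median of 0.24, but 31 of 36 were lower in thinned sums (-0.35), 30 of 36 on the mean CPM per cell (-0.38) and 30 of 36 without cells above 2 times the median total (-0.92). The list was also lower for 31 of 36 genes at a CD14 threshold of 100 CPM (-0.45), whereas in depth-matched cells 36 of 36 were higher (0.72). The direction in irradiated cells thus differed between settings, and the cause was not tested. In untreated cells 35 or 36 of 36 were lower in the same settings.

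The class difference itself differed between untreated and irradiated WT for 6 genes by the interaction test in edgeR (0.0558% of those tested), 2 in the positive (0.0186%) and 4 in the negative direction (0.0372%). CYP1B1 and SAA1 had the more positive difference in untreated cells, by 1.44 and 1.70 (adjusted p 0.039 for both). ISG15, OASL, CST4 and AGR2 had the more negative one, by -2.14, -5.23, -3.06 and -3.66 (adjusted p 0.00331 for ISG15 and OASL, 0.00808 for CST4 and AGR2). ISG15 was at 979 against 439 CPM and 362 against 163 CPM in irradiated WT, higher in positive cells of both libraries and so opposite to the untreated WT sums. In untreated WT, 1 negative cell held most of the ISG15 negative sum of replicate 1. The untreated ISG15 call was lost in 12 of 24 alternatives. In settings where the knockdown library did not enter, 0 genes passed without cells above 2 times the median total, and 0 at 100 CPM. This interaction passed for 4 genes in thinned sums and 6 among S and G2/M cells, 0 of them in the positive direction. Without the knockdown library in the main sums it passed for 8 genes, 2 in the positive and 6 in the negative direction. For TNFSF10 the difference between treatments was 0.74 (adjusted p 0.586) and did not pass.

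**Figure D4:**
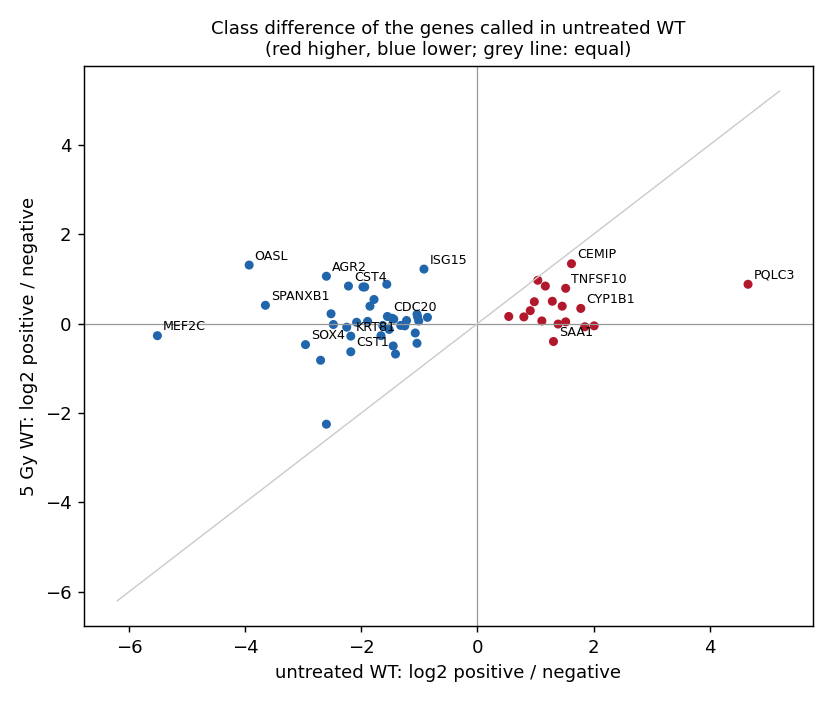
Class difference (log2 of positive over negative) of the 56 genes called in untreated WT (x axis) and their difference in irradiated WT (y axis), red for the 18 higher and blue for the 38 lower genes. Of the red points 14 lie above 0 on the y axis, and of the blue points 17 lie below it.

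When replicate 1 of the untreated knockdown was averaged with irradiated WT, 545 genes passed by edgeR (5.07% of those tested), 156 higher (1.45%) and 389 lower (3.62%). That library had 5 positive cells, all 4 with a phase call in G1, and without it 0 genes passed (505 at an unadjusted p below 0.05), so the 545 rest on those 5 cells. The class difference of untreated WT minus that mean passed for 9 genes (0.0837% of those tested), 7 more positive in untreated WT (0.0651%) and 2 more negative (0.0186%). That mean holds the same 5 knockdown cells. Against irradiated WT alone, GMNN (-0.04) and UBE2C (-1.40), which are among the 7, were not more positive.

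**Figure D5:**
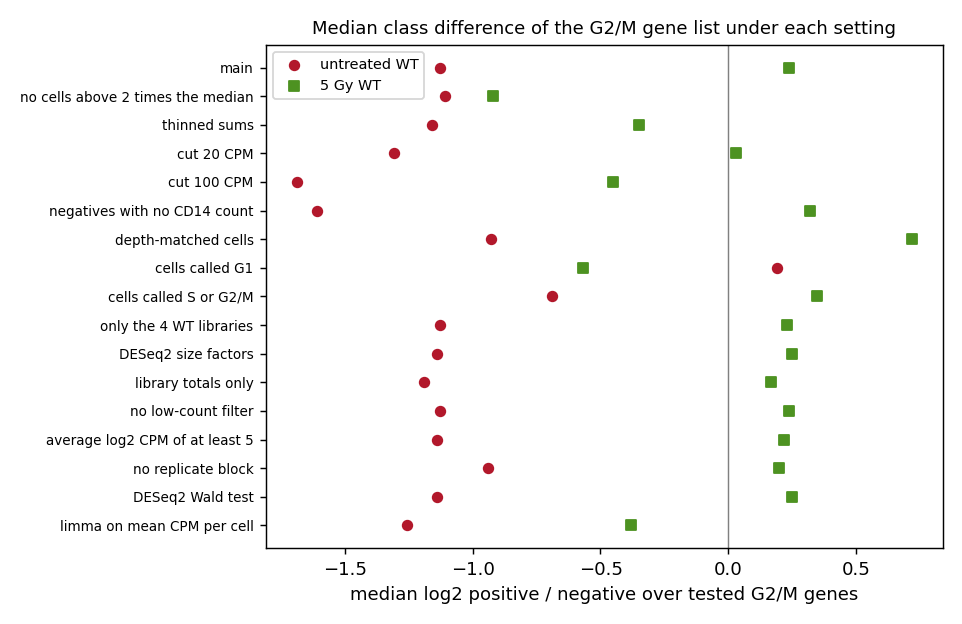
Median log2 difference of positive over negative cells (x axis) over the tested genes of the G2/M list under each setting (y axis), circles for untreated WT and squares for irradiated WT. Circles lie between -1.69 and -0.69 except among cells called G1 alone (0.19), while squares lie on both sides of 0, from -0.92 to 0.72. Phase was called from the same list. Among cells called G1 the square holds irradiated WT replicate 2 only, as replicate 1 had 4 positive G1 cells.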

How the data were processed

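Single cells were picked by mouth pipette and amplified with a modified Smart-seq2 protocol into 3' mRNA libraries, per the labels' protocols. The deposited values are raw counts of coding genes in each cell; per the submitters' processing notes the authors used Trimmomatic 0.36, HISAT2 2.1.0, HTSeq 0.9.1 and the build hg38. Whether counts are reads or molecules, and whether strand was used, is not given in the sources used here, so overlapping genes and close copies are uncertain. The library is the unit, and cells are not replicates. No 2 kept cells held identical counts. Doublets were not called, since cells were picked singly.

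Kept cells (1000 genes, 5000 counts) held 9321268 to 24256471 counts per library and 9411 to 2241907 per cell. Counts were summed per library and CD14 class where both classes had at least 5 cells, which 5 of 8 libraries met; the irradiated knockdown libraries did not enter, so the mean over the other groups covers irradiated WT and 1 untreated knockdown library. Comparisons with irradiated WT alone were added after seeing the data. After filterByExpr and TMM scaling, genes were tested with edgeR 4.0.16 (library block, class effect per group, 2 residual degrees of freedom, biological coefficient of variation 0.462, Benjamini-Hochberg threshold 0.05). In simulated counts over 10756 genes for the untreated WT comparison, 88% of 4-fold and 32% of 2-fold changes were recovered with 4 false calls, and 0 were made with no change.

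For phase calls, detection shares and correlations each cell was thinned to 69000 counts, which 330 of 363 cells reached (42 positive and 47 negative untreated WT cells). S and G2/M were scored with scanpy 1.11.5 on 35 and 36 genes. Symbols came from the files and positions from GENCODE 29 (15031 of 15041 identifiers), and genes absent from a table counted as 0. R 4.3.3, limma 3.58.1, DESeq2 1.42.0 and Python 3.11.15 were used.

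The classes, the markers and the gene lists were chosen with earlier results of these data known. Named genes were CD14, TNFSF10, COL1A2 and ANGPT1, the 12 with the largest difference in each direction among passing genes (average log2 CPM 4 or more), the 2 with the smallest p of each list, a fixed set and the 8 closest to CD14. Some genes that this rule names are not reported here. RARRES2, RARRES3, TXNRD1, BIRC5, TOP2A, MT2A, MEF2C and the genes of the lowest correlation were named after their values were seen. Replicate numbers were given in order and pair nothing; the block is the library that holds both classes. Alternatives covered scaling, filters, tests, weighting of cells, the CD14 threshold, depth, phase, the block and each library left out. The 24 are not all distinct. The 4 WT libraries alone and the fit without the knockdown library are the same, and all barcodes gave the main untreated WT result.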

Additional observations from a re-analysis of the deposited data

Results flagged for a closer look

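The class difference (positive minus negative, log2) was tested between untreated WT and irradiated WT as an interaction in edgeR, and 6 genes passed in the main fit. At a threshold of 100 CPM, and without cells above 2 times the median total, 0 passed. OASL differed by -5.23, ISG15 by -2.14, CST4 by -3.06 and AGR2 by -3.66, so that each was lower in positive cells of untreated WT relative to irradiated WT. SAA1 differed by 1.70 and CYP1B1 by 1.44 in the other direction.

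Against the mean of irradiated WT and the 1 untreated knockdown library with 5 positive cells, 9 genes passed the same test. ISG15 differed by -2.28 and ATP1B1 by -1.5. SAA1 differed by 1.84, PQLC3 by 3.95, UBE2C by 1.94, GMNN by 2.45, NDUFB11 by 1.58, AKR1C1 by 1.65 and IL24 by 8.49. ISG15 and SAA1 were called in both comparisons, which share the untreated WT and irradiated WT libraries. For OASL, 1 cell held 96.6% of the negative sum of untreated WT replicate 1. For ISG15, 1 cell held most of that library's negative sum. The part of single cells in the interaction was not tested.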

How the results depend on the processing

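Against 56 genes called in untreated WT, the total number passing, of whichever genes, was 3 without cells above 2 times the median total, 107 in thinned sums, 6 at a threshold of 20 CPM, 33 against negative cells with no CD14 count, 6 with depth-matched cells, 0 among G1 cells, 9 among S and G2/M cells, 131 with no low-count filter, 5 without the replicate block, 178 by DESeq2's Wald test and 107 by limma; leaving out 1 library gave 31 to 75. Of the 56 themselves, 49 were called in thinned sums, 23 against cells with no CD14 count, 8 among S and G2/M cells, 55 by DESeq2's Wald test and 47 by limma. The mean over the other groups (545) gave 1 without cells above 2 times the median, 12 in thinned sums, 8 at 20 CPM, 8 at 100 CPM, 101 against cells with no CD14 count, 978 depth-matched, 0 in G1, 0 in S and G2/M, 902 with no filter, 347 without the replicate block, 1084 by DESeq2, 1007 by limma, 0 for irradiated WT alone and 0 to 999 with 1 library left out. The interaction (9) gave 0 without cells above 2 times the median, 4 in thinned sums, 1 at 20 CPM, 0 at 100 CPM, 1 against cells with no CD14 count, 18 depth-matched, 1 in G1, 4 with DESeq2 size factors, 191 with no filter, 51 with a higher filter, 0 without the replicate block, 210 by DESeq2, 27 by limma and 6 to 118 with 1 library left out. Beyond this change of libraries, the cause of the shifts was not tested. The depth ratio turned to 0.21 at 20 CPM and 0.46 against cells with no CD14 count (range -0.49 to 0.01 with 1 library left out), and the S share ranged from -6.85 to 0.25 points with 1 library left out. The G2/M share passed at 20 CPM, over 8 libraries, by -20.6 points (exact permutation p 0.00781), and ranged from -32.4 to -26.1 points with 1 library left out; the mitochondrial share ranged from 0.857 to 1.31 points with 1 library left out, and it was 0.162 points at 20 CPM (8 libraries, exact permutation p 0.828) and 0.716 points against cells with no CD14 count (exact permutation p 0.312).

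Differences that reversed were SAA2 (-0.20 against cells with no CD14 count), CDC20 (0.12), MKI67 (0.68) and TOP2A (0.12) among G1 cells, CXCL8 (-0.94) and TNFRSF11B (-0.03) at 100 CPM, and SOD2 (-0.36) among S and G2/M cells. With all barcodes, or at least 3000 genes per cell, all 56 calls were kept, but these settings hardly changed the untreated WT fit. The genes tested numbered 10756 and 10755, against 10756 in the main fit. The classes rest on 2 libraries and 96 cells, and CD14 is read from few counts in shallow cells: the threshold is 17.5 counts at the median depth, and 4 positive cells held fewer than 10.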

Other observations

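The remaining knockdown libraries held too few positive cells for a class comparison, 3 in each of untreated knockdown replicate 2 and irradiated knockdown replicates 1 and 2. Their median CD14 levels were 59.8, 60.2 and 99.2 CPM. Of the positive cells deep enough to be thinned, 2 of 2 in the untreated library were called G1, as were 3 of 3 and 2 of 3 in the irradiated libraries.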
